A study of Macaca fascicularis with 64 samples.

Results

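The HOX genes of cynomolgus monkeys (Macaca fascicularis) were taken as every gene whose name is HOX, a cluster letter from A to D and a number. This gave 39 of the 28141 genes in each deposited table, with 11 in cluster A, 10 in cluster B, 9 in cluster C and 9 in cluster D, and all 39 were in both tables. The newborn samples came from SIRT6 mutant animals, called KO here (KO2 and KO3), and from wild-type animals, called WT here (WT2 and WT3). From each animal 7 tissues were sequenced in bulk, namely kidney, lung, heart, liver, thymus, muscle and brain, with 2 libraries per tissue, called repeat libraries here, though the labels do not say whether they are separate pieces or repeat preparations. Wild-type brain and muscle at gestation month 2 and month 4 gave 8 more libraries, 2 per tissue and month. The labels give neither the kind of SIRT6 mutation, nor the muscle or brain region sampled, nor whether the 2 fetal libraries of a month came from separate fetuses, so p-values measure the spread between the animals or libraries used.

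HOX genes encode homeodomain transcription factors that tell cells where they lie along the axis from head to tail. Genes with low paralog numbers act from the hindbrain and neck downward, genes with high numbers act in the trunk, limbs and tail, and the order along each cluster matches the order along the body. Adult and newborn tissues keep part of this code, mostly in connective tissue and other mesoderm, while forebrain and midbrain form in front of its reach. SIRT6 is a nuclear deacetylase of histones. Paralog groups 1 to 3 are called anterior below, groups 4 to 8 central and groups 9 to 13 posterior. A level is in FPKM, which is scaled by gene length and library, and a gene counts as detected at a mean of 1 FPKM or more. Cufflinks shares reads between overlapping transcripts. Because 18 of the 39 HOX genes overlap another HOX gene in RefSeq (assembly T2T-MFA8v1.1), levels of such neighbours as HOXA3 and HOXA5 or HOXC6 and HOXC10 are uncertain relative to each other.

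Each tissue carried its label's markers. The summed level of a tissue's own marker genes was higher in its lowest animal than in the highest animal of any other tissue, in all 7 tissues (for brain, at least 2190 FPKM against at most 208 FPKM). The 208 FPKM of brain markers was in KO3 muscle, against 12.6 FPKM in KO2 muscle and 23.4 and 23.7 FPKM in WT muscle. Muscle markers summed to 67.9 and 111 FPKM in KO brains and 6.11 and 6.17 FPKM in WT brains. The part of these signals in the HOX values was not tested. SIRT6 itself ranged over 3.07 to 12.4 FPKM in KO animals and 6.18 to 12.4 FPKM in WT animals by tissue, and both KO animals were below both WT animals in 1 of the 7 tissues. Its gene-level FPKM does not show the mutation, so the genotypes rest on the labels. Column sums were 334000 to 587000 FPKM in the newborn table and 311000 to 553000 FPKM in the fetal table, and read depth is unknown.

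HOX genes were detected in 6 of the 7 newborn tissues, in sets that differed from tissue to tissue. The mean over the 4 animals reached 1 FPKM for 31 HOX genes in kidney, 19 in muscle, 10 in lung, 2 each in thymus and liver, 1 in heart and 0 in brain. Kidney held the highest mean of 31 genes and muscle that of 6. By tissue, 7 genes were detected nowhere, 10 in 1 tissue, 16 in 2 tissues and 6 in 3 or more. The 7 undetected genes included HOXA13, HOXB13, HOXC13 and HOXD13, the most posterior genes of their clusters, which act in distal limb, hindgut and urogenital tract. None of these 4 passed 0.606 FPKM in any of the 64 libraries.

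**Figure D1:**
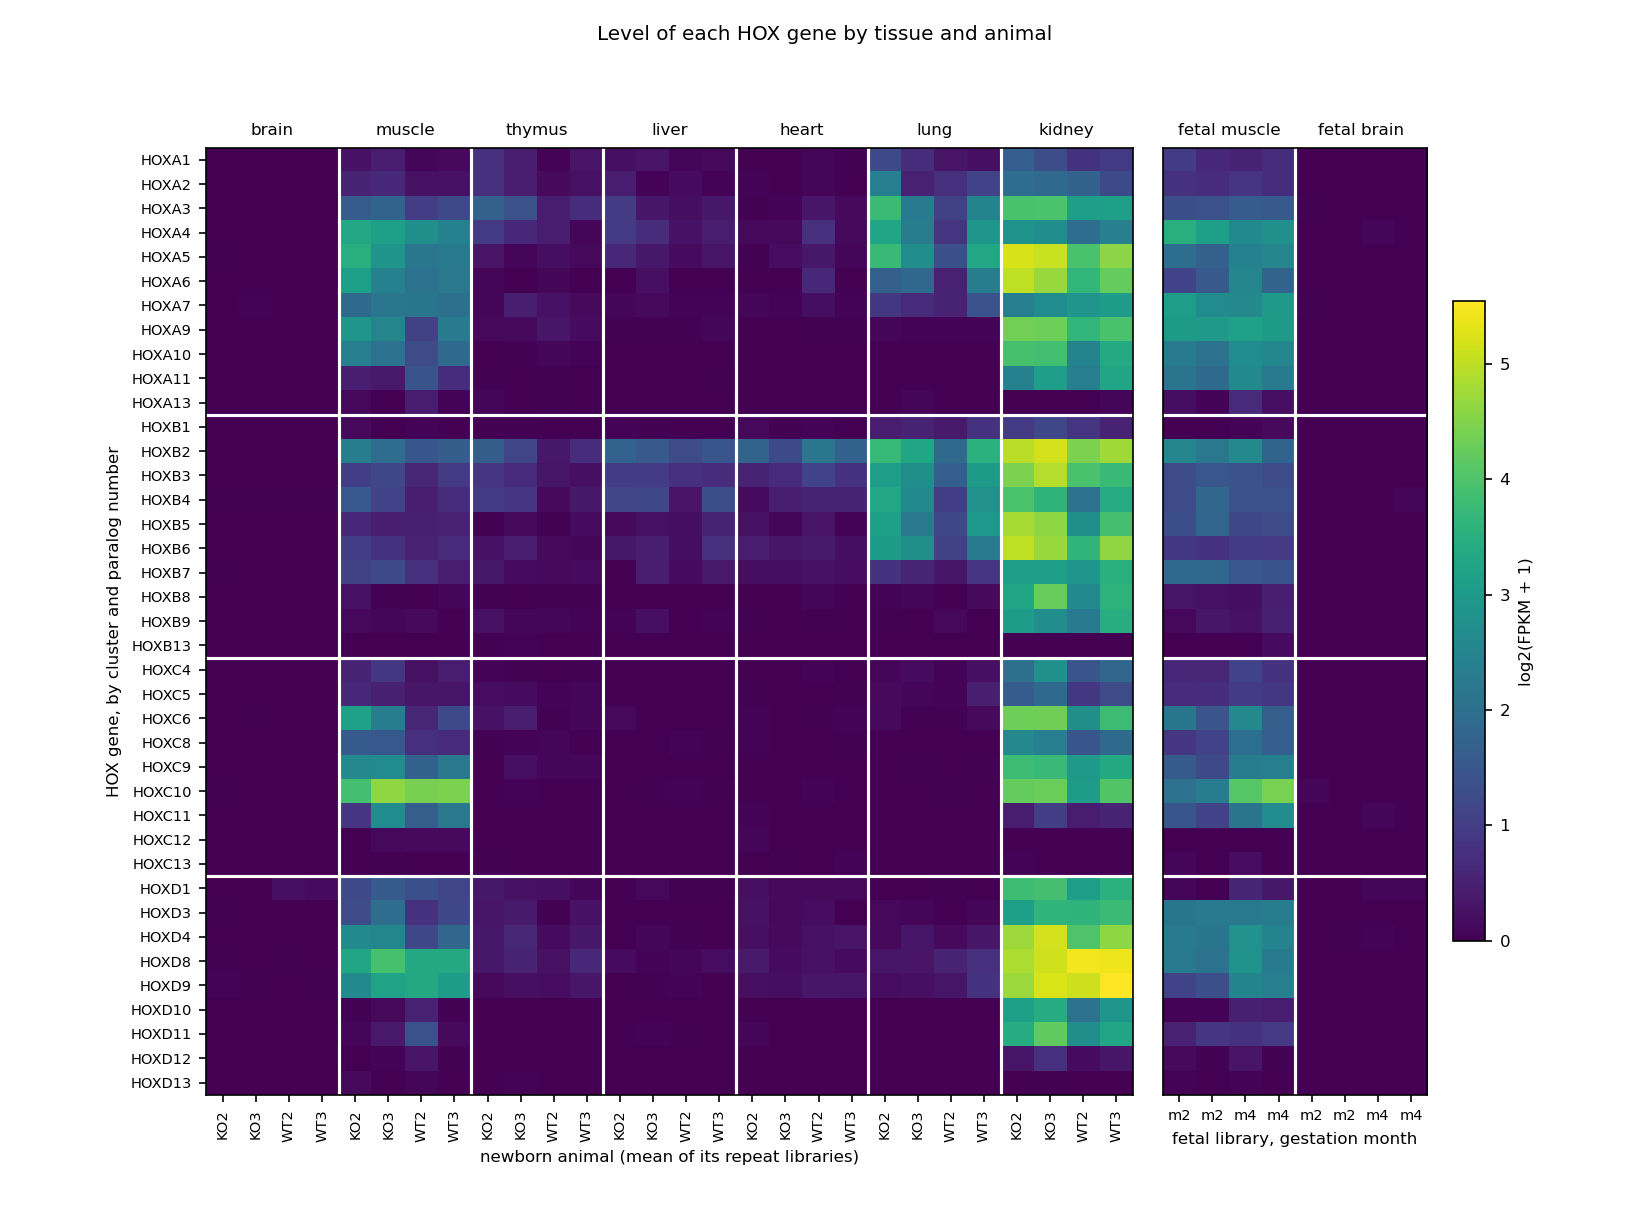
Level of each of the 39 HOX genes as log2(FPKM + 1), with genes in rows by cluster and paralog number and samples in columns (newborn animals on the left, KO2 and KO3 before WT2 and WT3 in each tissue; fetal libraries on the right, month 2 before month 4). Kidney is filled through paralog group 11, lung is filled in clusters A and B up to group 7, and brain is dark throughout.

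Brain was close to empty of HOX RNA at every stage. Of 312 values (39 genes in 8 newborn libraries), 282 were listed at 0 and the highest was 0.251 FPKM. In fetal brain 141 of 156 values were listed at 0, and the highest was 0.0692 FPKM. No HOX gene reached the level needed for a test between KO and WT brain or between fetal months. The 6 hindbrain and spinal cord markers summed to 15.8 and 9.97 FPKM in KO brains and 34.5 and 23.2 FPKM in WT brains. Of the 6, SLC6A5 and ISL1 were listed at 0 in every newborn brain library.

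Lung had anterior and central genes of clusters A and B. The leading genes were HOXB2, a regulator of hindbrain identity, HOXA5, which mouse studies tie to lung formation, and HOXB3. HOXB2 had 12.2 and 8.66 FPKM in KO lungs and 2.76 and 10.6 FPKM in WT lungs. HOXA5 had 12.4 and 5.55 FPKM in KO lungs, against 1.57 and 9.01 FPKM in WT lungs. HOXB3 stood at 7.48 and 5.82 FPKM in KO lungs and at 2.15 and 7.10 FPKM in WT lungs. In each of these the lowest animal was WT2, and KO and WT animals overlapped. Cluster D gave 0.635 and 1.45% of the summed HOX level in KO lungs, against 5.61 and 2.70% in WT lungs, and no posterior gene was detected. HOXB4 had 8.99 and 5.30 FPKM in KO lungs and 1.04 and 5.96 FPKM in WT lungs, and HOXB5 had 7.76 and 3.67 FPKM in KO lungs and 1.28 and 6.80 FPKM in WT lungs. The most posterior genes detected over all animals were HOXA6 and HOXB6.

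Muscle had the reverse emphasis, with clusters A, C and D and a strong posterior part. HOXC10, which in mice marks lumbar levels and the hindlimb, led with 13.8 and 23.8 FPKM in KO muscle and 20.1 and 21.0 FPKM in WT muscle. HOXD8 had 8.59 and 14.3 FPKM in KO muscle, against 9.11 and 9.38 FPKM in WT muscle. HOXD9, a posterior gene with roles in the mouse limb, had 5.20 and 8.12 FPKM in KO muscle and 9.23 and 7.23 FPKM in WT muscle. KO and WT animals overlapped in all 3. HOXA4, a central gene, had 8.82 and 7.76 FPKM in KO muscle and 5.74 and 4.39 FPKM in WT muscle. HOXC9 had 5.09 and 5.34 FPKM in KO muscle, against 2.31 and 3.67 FPKM in WT muscle. In both, the KO animals were above the WT animals. Cluster B gave 9.54 and 6.80% of the summed level in KO muscle, against 5.68 and 6.21% in WT muscle. In lung its share was 50.8 and 61.7% in KO animals and 58.9 and 54.7% in WT animals.

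Kidney held the longest stretch of the code. Of the genes detected there, 7 were anterior, 15 central and 9 posterior, and HOXA11, HOXC10 and HOXD11 were the most posterior detected in clusters A, C and D. Paralog group 11 is needed for kidney formation in mice. HOXD8 had 28.2 and 34.4 FPKM in KO kidneys and 42.7 and 41.0 FPKM in WT kidneys, with both KO animals below both WT animals. HOXD9 had 25.3 and 36.5 FPKM in KO kidneys and 33.6 and 45.6 FPKM in WT kidneys, which overlap. HOXB2 had 30.5 and 34.6 FPKM in KO kidneys and 21.0 and 25.9 FPKM in WT kidneys, so an anterior gene was among the 3 highest. HOXD4 had 25.4 and 34.9 FPKM in KO kidneys and 15.2 and 23.1 FPKM in WT kidneys, and HOXA9 had 19.5 and 19.0 FPKM in KO kidneys and 11.6 and 14.4 FPKM in WT kidneys. Both KO animals were above both WT animals in these 3 genes. HOXD11 had 9.82 and 17.2 FPKM in KO kidneys, against 5.65 and 8.77 FPKM in WT kidneys. The summed HOX level was 462 and 506 FPKM in KO kidneys and 283 and 406 FPKM in WT kidneys, the highest of any tissue in every animal.

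Thymus, liver and heart kept little more than an anterior edge. In thymus HOXA3, which mice need to form the organ, had 2.25 and 1.61 FPKM in KO animals and 0.354 and 0.654 FPKM in WT animals. HOXB2 led in liver, at 2.34 and 1.94 FPKM in KO animals and 1.46 and 1.80 FPKM in WT animals. It also led in heart, at 2.41 and 1.37 FPKM in KO animals and 3.49 and 2.28 FPKM in WT animals. HOXB4 followed in liver with 1.24 and 1.28 FPKM in KO animals, against 0.220 and 1.50 FPKM in WT animals. No posterior gene was detected in these 3 organs.

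These differences between tissues were tested with limma on log2(FPKM + 1), each tissue against the mean of the other 6 within the same 4 animals, with Benjamini-Hochberg adjusted p over all genes tested. Of the 39 genes, 23 passed the filter of a mean of 1 FPKM over the 56 libraries, and 12 of these passed only because of kidney, so the counts describe those 23 and support nothing further. In muscle 14 were called higher and 4 lower, where 14.2% and 46.1% of all genes were called higher and lower. HOXC10 was higher in muscle by 3.68 (log2 scale, SE 0.28, adjusted p = 3.9e-05). HOXD8 was higher by 2.39 (SE 0.25, adjusted p = 0.00012) and HOXD9 by 2.04 (SE 0.23, adjusted p = 0.0002). The 4 called lower in muscle were HOXB3, HOXB5, HOXB6 and HOXB8, all of cluster B. In lung 7 were higher and 12 lower, against 16.8% and 20.3% of all genes. The 7 were HOXA3, HOXA5 and HOXB2 to HOXB6, with HOXB6 higher by 1.25 (SE 0.26, adjusted p = 0.012). HOXC10 was lower in lung by 1.38 (SE 0.12, adjusted p = 0.00079). In kidney 23 of the 23 were higher and 0 lower, against 51.0% and 17.6% of all genes, and HOXD9 was higher by 4.49 (SE 0.19, adjusted p = 2.8e-05).

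In the remaining tissues the tested HOX genes were mostly lower. Brain had 0 called higher and 23 called lower, against 29.2% and 30.2% of all genes. Thymus had 0 higher and 22 lower, against 31.4% and 38.5%. Liver had 0 higher and 22 lower, against 12.9% and 53.5%. Heart had 0 higher and 22 lower, against 16.5% and 44.8%. The genes not called were HOXA3 in thymus, HOXB4 in liver and HOXB2 in heart. With kidney left out, an alternative added after seeing the data, 11 HOX genes were tested. Of these 7 were higher and 0 lower in muscle, where 15.4% and 41.1% of all genes were called. In lung 8 were higher and 1 lower, against 19.6% and 19% of all genes. HOXC10 had the lowest adjusted p in muscle there (4.33 higher, SE 0.30, adjusted p = 3.8e-05). Some of the 11 passed this filter only through muscle or only through lung, so their direction there was set by it. HOXC10, for example, had a mean of 19.7 FPKM in muscle, 0.0212 FPKM in liver and less in thymus, heart, lung and brain. The counts with kidney left out thus describe those 11 genes and support nothing further.

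Fetal WT muscle carried HOX genes of clusters A, B, C and D, with 22 genes detected at month 2 and 22 at month 4. The leading genes at month 2 were HOXA4, HOXA9 and HOXA7, and HOXC10 led at month 4. HOXC10 had 3.24 and 4.01 FPKM at month 2 and 16.1 and 20.5 FPKM at month 4. HOXD9 had 1.18 and 1.57 FPKM at month 2 and 4.67 and 4.21 FPKM at month 4. HOXC11 had 1.80 and 1.17 FPKM at month 2 and 3.39 and 5.36 FPKM at month 4. In these posterior genes every month 4 library was above both month 2 libraries. HOXA4, a central gene, ran the other way with 10.3 and 7.79 FPKM at month 2 and 5.27 and 5.83 FPKM at month 4. HOXC9 had 1.99 and 1.34 FPKM at month 2 and 4.11 and 4.24 FPKM at month 4, and HOXC8 had 0.841 and 1.18 FPKM at month 2 and 3.05 and 2.16 FPKM at month 4. HOXA9, by contrast, had 7.10 and 6.97 FPKM at month 2 and 8.0 and 7.1 FPKM at month 4. The posterior share of the summed HOX level was 30.0 and 31.3% at month 2 and 44.4 and 50.0% at month 4. Newborn WT muscle, in a separate table, had 53.4 and 52.7%. The labels do not say whether the same muscle was taken at each stage.

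**Figure D2:**
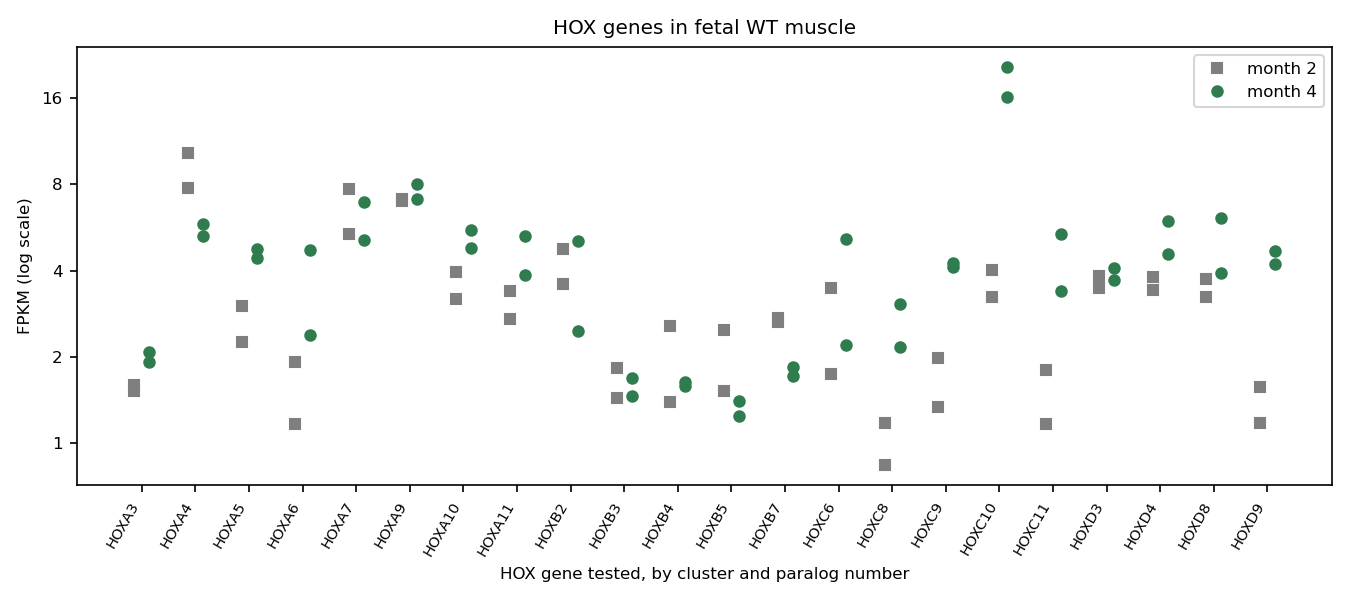
FPKM on a log scale of the 22 HOX genes tested in fetal wild-type muscle, with month 2 libraries as grey squares and month 4 libraries as green circles. HOXC10 shows the widest gap, at 3.24 and 4.01 FPKM at month 2 and 16.1 and 20.5 FPKM at month 4, while most cluster A and B genes lie close together.

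Of the 22 HOX genes tested in fetal muscle, 6 were higher and 1 lower at month 4 than at month 2 (limma, adjusted p over all genes), where 22.3% of all genes were higher and 15.7% lower. In both directions together 31.8% of the tested HOX genes were called, against 37.9% of all genes, so HOX genes were not called more often than genes in general. HOXC10 rose by 2.05 (log2 scale, SE 0.21, adjusted p = 0.00013). HOXD9 rose by 1.20 (SE 0.23, adjusted p = 0.0031) and HOXC11 by 1.10 (SE 0.26, adjusted p = 0.0097). HOXC9 rose by 0.97 (SE 0.23, adjusted p = 0.0097), HOXC8 by 0.84 (SE 0.25, adjusted p = 0.026) and HOXA5 by 0.63 (SE 0.22, adjusted p = 0.046). HOXA4 fell by 0.60 (SE 0.21, adjusted p = 0.044). Of the 5 tested genes of cluster C, 4 rose and 0 fell, and of the 5 of cluster B, 0 rose and 0 fell. HOXC8, HOXC9 and HOXC10 overlap each other in RefSeq, so the 4 are not separate observations. The median change was 0.97 over the 7 posterior genes tested, 0.34 over the 11 central ones and 0.02 over the 4 anterior ones, against 0.16 over all genes tested. Leaving out 1 library at a time gave 2 to 12 called genes, with 2 without month 2 library 2, 3 without month 2 library 1 and 12 without month 4 library 2. HOXC10 was called in each.

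Other regulators were read in fetal muscle over the same months. Among TALE homeodomain proteins, the DNA-binding partners of HOX proteins, MEIS3 had 18.2 and 14.3 FPKM at month 2 and 8.15 and 6.48 FPKM at month 4, and it fell by 1.05 (SE 0.21, adjusted p = 0.0037). Of 20 Polycomb and trithorax genes, which keep HOX clusters silent or active, 4 rose and 4 fell, which is near the shares of all genes given above (22.3% and 15.7%). Among them RING1, a Polycomb ubiquitin ligase, had 51.5 and 51.0 FPKM at month 2 and 22.1 and 27.4 FPKM at month 4. BMI1, a subunit of the same complex, had 3.78 and 3.58 FPKM at month 2 and 9.63 and 7.05 FPKM at month 4. EZH2, the Polycomb methyltransferase, fell by 0.83 (SE 0.23, adjusted p = 0.018). In the list of retinoic acid and upstream patterning genes, where retinoic acid is a known inducer of anterior HOX genes, 1 rose and 1 fell of 9 tested. ALDH1A1, which makes retinoic acid, rose by 1.22 (SE 0.20, adjusted p = 0.0015). CRABP2, which carries it in the cell, fell by 1.86 (SE 0.21, adjusted p = 0.00023). Of 8 tested genes beside the clusters, 2 rose, among them HIBADH, a mitochondrial enzyme gene next to cluster A, with 6.37 and 5.58 FPKM at month 2 and 27.5 and 31.1 FPKM at month 4. The summed fibroblast markers were 5860 and 5870 FPKM at month 2 and 14600 and 7970 FPKM at month 4. Their part in the HOX changes was not tested, and in bulk tissue more cells of a type and more RNA per cell cannot be told apart.

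The KO and WT newborns were compared gene by gene in each tissue, with the 2 animals of each genotype as replicates. Of the 39 genes, 1 passed the test in 1 tissue, muscle. In muscle 19 HOX genes were tested and 1 was called, against 2.32% of all genes called there. This was HOXC6, a thoracic gene in mice. Its 8 muscle libraries gave 8.44 and 7.48 FPKM in KO2, 3.46 and 4.59 FPKM in KO3, 0.338 and 0.695 FPKM in WT2, and 1.42 and 1.33 FPKM in WT3. All KO libraries were above all WT libraries, though its WT mean was under the 1 FPKM filter level. It was higher in KO muscle by 1.82 (log2 scale, SE 0.49, adjusted p = 0.043). The call was lost in 8 of the 10 alternatives in which HOXC6 was tested, with adjusted p from 0.039 to 0.77, and was kept in 2 of them, with a pseudocount of 0.1 and without KO3. Without KO2 the change was 1.40 (adjusted p = 0.2), without WT2 1.49 (adjusted p = 0.77) and without WT3 2.15 (adjusted p = 0.24). With the animal number as a block the adjusted p was 0.065.

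**Figure D3:**
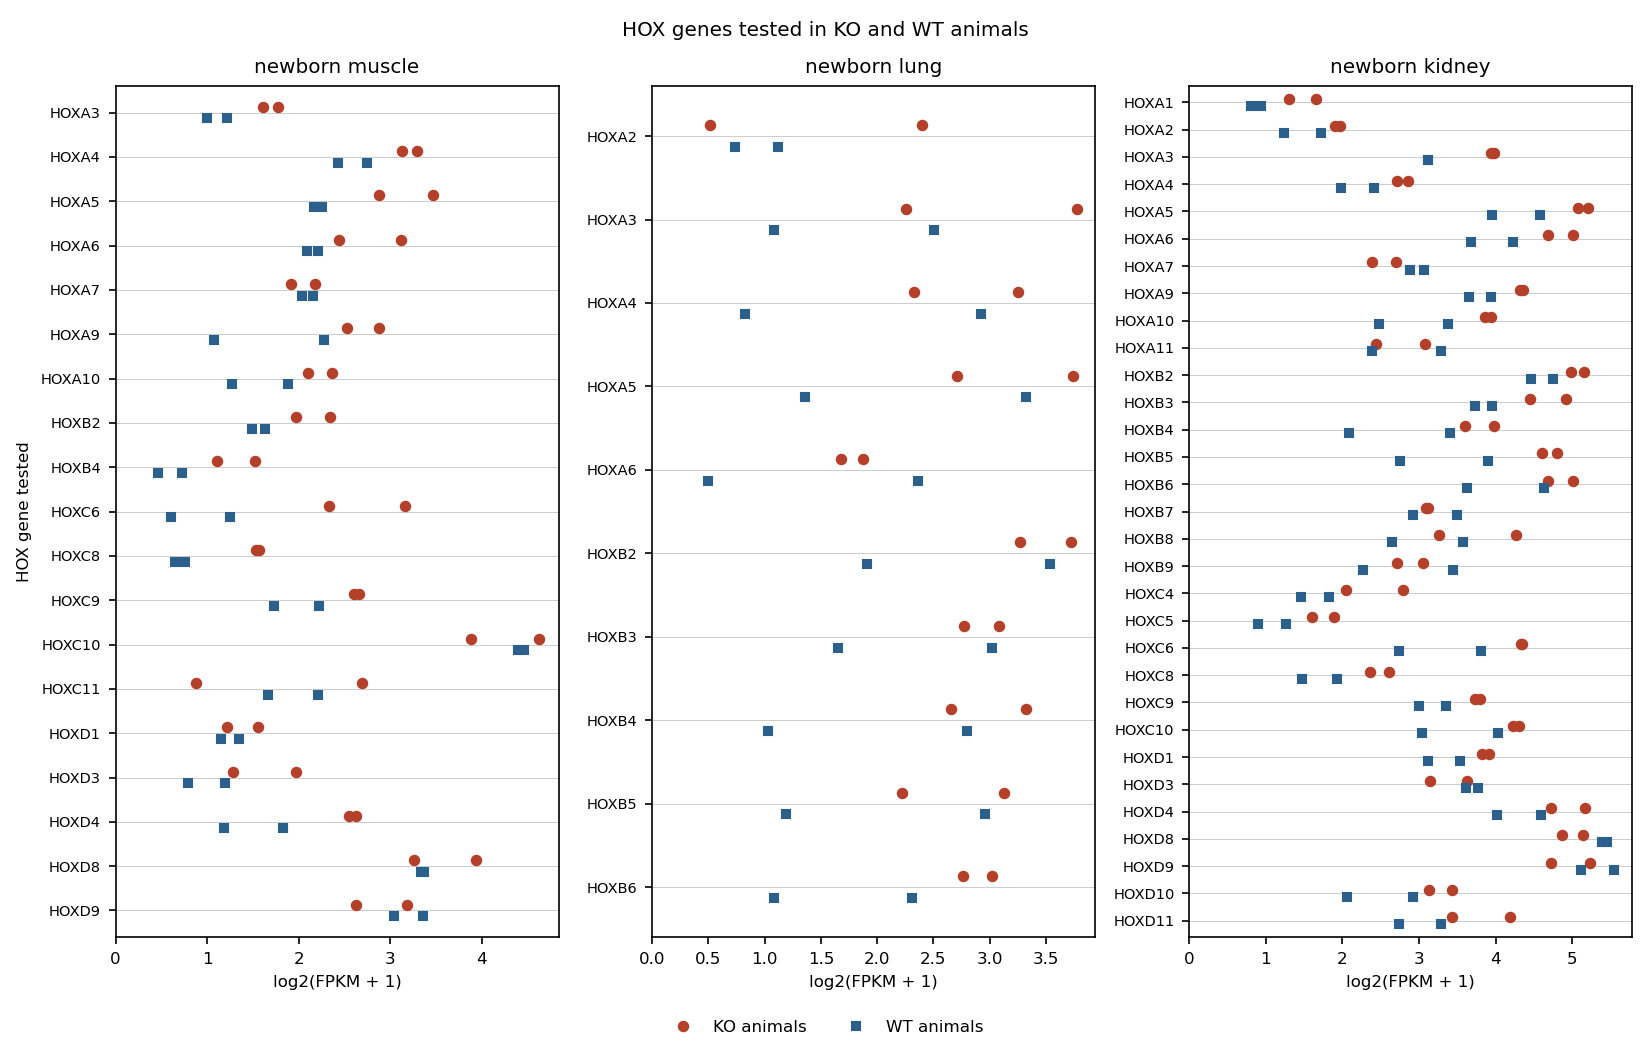
Level as log2(FPKM + 1) of each HOX gene tested in newborn muscle, lung and kidney, with KO animals as red circles and WT animals as blue squares, each the mean of 2 repeat libraries. In muscle and kidney most KO circles lie to the right of both WT squares, and in lung 1 WT animal, WT2, lies left of the other 3 in 9 of 10 genes.

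Most other muscle HOX genes stood higher in both KO animals without passing the test. Both KO animals were above both WT animals in 13 of the 19 genes and below in 0, where 21.6% and 20.2% of all tested genes had those orders. Among the 13, HOXB4, HOXC6 and HOXC8 passed the filter only through their KO level, so that their order was partly set by it. HOXA11, which was under the filter, had both KO animals lower, at 0.377 and 0.310 FPKM in KO muscle and 1.73 and 0.660 FPKM in WT muscle. Neighbouring HOX genes overlap and share enhancers, so these are not 13 separate observations. HOXA5 had 10.1 and 6.33 FPKM in KO muscle and 3.51 and 3.76 FPKM in WT muscle (adjusted p = 0.41, limma). HOXD4 had 5.20 and 4.87 FPKM in KO muscle, against 1.27 and 2.56 FPKM in WT muscle (adjusted p = 0.3). The median change was 0.60 over the 4 anterior genes tested, 0.70 over the 9 central genes and 0.26 over the 6 posterior genes, against -0.00014 over all genes. The posterior share of the summed level was 34.2 and 44.5% in KO muscle, against 53.4 and 52.7% in WT muscle, and no test was made on this share. The FPKM-weighted mean paralog number was 6.68 and 7.30 in KO muscle and 7.83 and 7.70 in WT muscle. Some posterior genes varied as much between animals of 1 genotype. HOXC11 had 0.837 and 5.49 FPKM in KO muscle and 2.18 and 3.63 FPKM in WT muscle, and HOXD11 had 0.0631 and 0.291 FPKM in KO muscle and 1.65 and 0.0982 FPKM in WT muscle. PITX1, a hindlimb regulator added to the lists after its values were seen, had 1.38 and 0.881 FPKM in KO muscle and 5.22 and 0.467 FPKM in WT muscle. Its part, and that of the site sampled, was not tested. The summed fibroblast markers were 4050 and 2290 FPKM in KO muscle and 6570 and 3590 FPKM in WT muscle, so they were not higher in KO. The 6 muscle markers summed to 45100 and 30000 FPKM in KO muscle and 73800 and 61400 FPKM in WT muscle, with 2 of the 6 called lower, and their part in the HOX values was not tested.

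In kidney 31 HOX genes were tested and 0 passed the threshold, against 5.78% of all genes called. Of the 31, 9 had an unadjusted p under 0.05, where 3018 of all 13937 genes tested had one. A positive change was found in 25 of the 31. The median change of the 31 was 0.65, against -0.04 over all genes tested. Without WT2 the median was 0.39, with 24 of the 31 positive. Both KO animals were above both WT animals in 23 genes and below in 2, where 22.9% and 29.5% of all tested genes had those orders. HOXB5 had the lowest adjusted p, at 26.8 and 23.3 FPKM in KO kidneys and 5.75 and 14 FPKM in WT kidneys (change 1.38, SE 0.39, adjusted p = 0.08, limma). HOXA5 had 35.9 and 32.8 FPKM in KO kidneys, against 14.5 and 22.9 FPKM in WT kidneys (adjusted p = 0.14). With the libraries as replicates and the animal as a correlated unit, 3 genes were called, namely HOXA3, HOXB3 and HOXA5 (adjusted p = 0.025, 0.025 and 0.037). The share of all genes called under that setting is not given here, so these 3 calls say nothing about the HOX genes in particular. The posterior share was 25.9 and 28% in KO kidneys and 28.7 and 31.7% in WT kidneys, while the anterior and central shares overlapped. Cluster D gave 25.5 and 31.4% of the summed level in KO kidneys, against 42.2 and 36.7% in WT kidneys. The shares of clusters A, B and C were higher in both KO animals. The FPKM-weighted mean paralog number was 6.04 and 6.14 in KO kidneys and 6.3 and 6.49 in WT kidneys. No test was made on these shares or on this number. HOXA7 and HOXD8 were the 2 genes below WT in both KO animals. HOXA7 had 4.24 and 5.52 FPKM in KO kidneys and 6.39 and 7.34 FPKM in WT kidneys.

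Cell type markers moved in the same kidneys. The summed fibroblast markers were 734 and 763 FPKM in KO kidneys and 378 and 406 FPKM in WT kidneys, with 6 of 6 markers tested and 0 called. None of the 6 was listed at 0 throughout. The 6 kidney markers summed to 382 and 704 FPKM in KO kidneys and 3390 and 3170 FPKM in WT kidneys, and 2 of the 6 fell. These were UMOD, a protein of the loop of Henle, which fell by 3.84 (SE 0.42, adjusted p = 0.0027), and SLC34A1, a proximal tubule phosphate transporter, which fell by 2.20 (SE 0.29, adjusted p = 0.0055). AQP2, the water channel of the collecting duct, had 61.7 and 46.6 FPKM in KO kidneys and 236 and 377 FPKM in WT kidneys. The nephron progenitor list summed to 79.8 and 67.3 FPKM in KO kidneys and 43.8 and 26.5 FPKM in WT kidneys, nearly all of it WT1, which podocytes keep. SIX2, the defining progenitor gene, was at 0.0225 and 1.23 FPKM in KO kidneys and 0.103 and 0.944 FPKM in WT kidneys. The part of these markers in the HOX values was not tested.

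**Figure D4:**
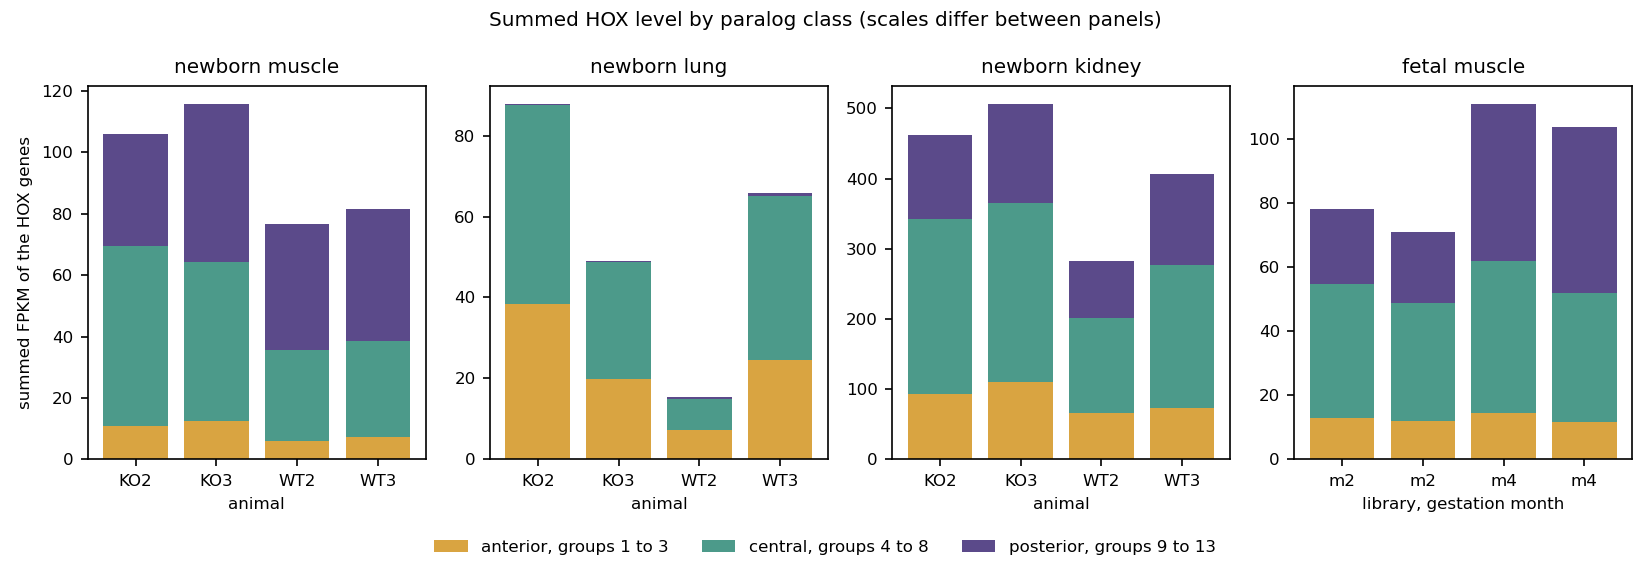
Summed FPKM of the 39 HOX genes in newborn muscle, lung and kidney by animal and in fetal wild-type muscle by library, with the anterior, central and posterior parts stacked and a scale of its own per panel. In kidney the sums are 462 and 506 FPKM in KO animals and 283 and 406 FPKM in WT animals. In lung WT2 stands lowest with 15.3 FPKM.

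In lung 0 of 10 HOX genes passed the threshold, and 0.0% of all genes did. None of the 10 had an unadjusted p under 0.05. All 10 changes were positive, with a median of 0.83 against -0.17 over all genes, but this rested on WT2. The summed HOX level was 87.9 and 49.0 FPKM in KO lungs and 15.3 and 65.9 FPKM in WT lungs. Without WT2 the median was -0.09, with 4 of 11 changes positive. Both KO animals were above both WT animals in 1 gene, HOXB6, and below in 0, where 11.3% and 26.3% of all tested genes had those orders. HOXB6 had 7.10 and 5.78 FPKM in KO lungs and 1.12 and 3.96 FPKM in WT lungs. The 4 measured lung markers summed to 1970 and 1560 FPKM in KO lungs and 18800 and 18300 FPKM in WT lungs, and the fibroblast markers to 1400 and 1160 FPKM in KO lungs and 1020 and 1140 FPKM in WT lungs. Their part in the HOX levels was not tested.

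The smaller sets gave no call. Thymus had 0 of 2 called, against 0.00772% of all genes, and 1 of the 2, HOXA3, had an unadjusted p under 0.05 (change 0.96, SE 0.39, adjusted p = 0.7). HOXA3 and HOXB2 both passed the thymus filter only through their KO level. The summed fibroblast markers were 500 and 291 FPKM in KO thymus and 260 and 163 FPKM in WT thymus, and their part was not tested. Liver had 0 of 2 called, against 1.1% of all genes, and heart had 0 of 1 called, against 0.18%, with no unadjusted p under 0.05 in either. Averaged over the 7 tissues of each animal, 0 of 23 were called, against 0.492% of all genes. Of these 20 were positive and 2 had an unadjusted p under 0.05, with a lowest adjusted p of 0.31. Among all 15038 genes tested there, 2003 had an unadjusted p under 0.05. The difference of the KO effect between 1 tissue and the mean of the others was tested for the same 23 genes in 7 tissues. None of the 161 pairs passed, against 0.466% of all pairs, and the lowest adjusted p was 0.11. An unadjusted p under 0.05 was found in 9 of the 161. Of all 15038 genes, between 707 (in lung) and 3550 (in kidney) had one in each of the 7 tissues. In all, 65 pairs of a gene and a tissue were tested between KO and WT. Of these 54 had a positive change, 12 an unadjusted p under 0.05 and 1 passed. Of the 12, 9 were in kidney, 2 in muscle and 1 in thymus. Among all genes tested, 3018 of 13937 in kidney had an unadjusted p under 0.05. In muscle 1636 of 12087 and in thymus 767 of 12961 had one.

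Partners and regulators of the HOX genes gave no call between KO and WT either. None of the 9 TALE genes, 20 Polycomb and trithorax genes, 14 retinoic acid and upstream patterning genes, 11 genes beside the clusters and 11 forebrain and midbrain genes in the tables was called in any of the 7 tissues or in their mean. In kidney all 9 TALE genes were tested, with a median change of 0.57 against -0.04 over all genes. CBX2, a Polycomb subunit, was above WT in both KO animals of muscle without a call, at 3.66 and 4.83 FPKM in KO muscle and 1.67 and 1.53 FPKM in WT muscle. It was chosen after its values were seen. Of the genes that border the clusters, SKAP2, which lies beside cluster A, had 12.1 and 13.9 FPKM in KO lungs and 5.93 and 15.1 FPKM in WT lungs, and SKAP1, beside cluster B, was highest in thymus at 30.4 and 38.8 FPKM in KO animals and 18.3 and 45.1 FPKM in WT animals. EVX2, beside HOXD13, did not pass 0.193 FPKM in the mean of any animal and tissue.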

How the data were processed

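Tissues were frozen in liquid nitrogen, RNA was extracted with TRIzol and RNeasy, and libraries were made with a TruSeq kit and read on an Illumina HiSeq X instrument, per the labels' protocols. Per the submitters' processing notes, Cufflinks 2.0.2, HISAT 0.1.6 and CASAVA were used. The genome build, annotation and strand handling were not given in the sources used here. The authors deposited FPKM per gene, without counts, so read depth and counting error are unknown. The newborn and fetal values were deposited as separate tables, so they were set side by side and never tested against each other.

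Repeat libraries were averaged per animal. Tests used limma 3.58.1 (lmFit and eBayes with a trend, R 4.3.3, statmod 1.5.0) on log2(FPKM + 1), which understates changes of low genes, for genes with a mean of 1 FPKM or more, with Benjamini-Hochberg adjustment over all genes tested and a threshold of 0.05. Alternatives were a pseudocount of 0.1, filters of 0.25 and 5 FPKM or none, quantile normalisation, libraries as replicates, a replicate block, WT animals alone and leaving out each animal or library. The scripts were tested on simulated data. Tables and figures used Python 3.11.15, pandas 2.3.3, numpy 2.4.6 and matplotlib 3.10.9.

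Per-sample values are given for up to 6 called members per direction with the smallest p and for the 3 highest members per tissue and stage. The members, lists and rules were chosen with earlier results of these data known. Results for some genes of the other lists are not reported here.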

Additional observations from a re-analysis of the deposited data

Results flagged for a closer look

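In groups of 4 libraries, 127 combinations of gene, tissue and genotype were checked for a library far from the others. A chance rate of about 1 group in 20 holds for 4 independent values. Here the 4 were 2 repeat libraries from each of 2 animals, so that rate does not apply. HOXB4 in KO muscle was at 2.6 FPKM in KO2 library 2, against 1.08 to 1.24 FPKM in the other 3 KO libraries. HOXD8 in WT kidney was at 44.2 FPKM in WT2 library 1, against 41.0 to 41.1 FPKM in the other 3 WT libraries.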

How the results depend on the processing

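Between KO and WT muscle the 1 called HOX gene became 0 with filters of 0.25 or 5 FPKM or none, quantile normalisation, libraries as correlated replicates and the replicate block, and 0 to 1 with 1 animal left out. In kidney 0 became 3 with libraries as correlated replicates, a count given without the share of all genes called under that setting. For each tissue against the others, a filter of 5 FPKM gave 4 called genes in brain, 3 in muscle, 4 in thymus, 4 in liver, 3 in heart, 4 in lung and 4 in kidney. Leaving out 1 animal gave 15 to 24 in brain and 10 to 20 in lung, and WT animals alone gave 11 in lung. With kidney left out the counts were 11 in brain, 7 in muscle, 10 in thymus, 7 in liver, 9 in heart and 9 in lung. Fetal muscle at month 4 against month 2 gave 7 called genes, 3 with no filter, 2 with a filter of 5 FPKM and 2 to 12 with 1 library left out. Fetal muscle against fetal brain called 14 of 14 tested HOX genes at month 2 (74.9% of all genes) and 17 of 17 at month 4 (59.9%). These genes passed the filter only through muscle, so their direction was set by it and the counts support nothing. The month 2 count was 28 with a filter of 0.25 FPKM, 29 with none, 0 with 5 FPKM and 9 to 19 with 1 library left out. The month 4 count was 28, 31 and 1 under those filters. Detection at 5 FPKM left 5 genes in muscle, 0 in thymus, 0 in liver, 0 in heart, 5 in lung, 3 in fetal muscle at month 2 and 7 at month 4, while 0.5 FPKM gave 4 in liver and 2 in heart. The cause of these shifts was not tested beyond the fewer genes or samples used.

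The labels do not say that animal or library numbers pair the samples. Correlations of same-numbered deviations were -0.231 in fetal brain, 0.365 in fetal muscle against brain at month 4, and between -0.0968 and 0.0901 in the other comparisons. The replicate block gave 17 called genes in fetal muscle against brain at month 4, the same count as without it, and 8 in fetal muscle over the months in place of 7. Of the alternatives for single called HOX genes, 1620 left the call and direction in place, 91 lost the call and 0 reversed. Read depth is unknown, and 2 animals per genotype limit what the KO comparisons can show.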

Other observations

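Limb regulators were read in the muscle libraries after their values had been seen. TBX4, a hindlimb gene, had 1.27 and 0.943 FPKM in KO muscle and 1.82 and 0.223 FPKM in WT muscle. TBX5, a forelimb gene, had 0.501 and 0.0678 FPKM in KO muscle and 0.0861 and 0.0598 FPKM in WT muscle. The 2 WT animals stood apart in TBX4 and the 2 KO animals in TBX5, all at low levels, and the labels do not name the muscle sampled.

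In fetal brain, where no HOX gene could be tested, 2 of the 7 tested genes of the retinoic acid and upstream patterning list were called higher at month 4 than at month 2 and 0 lower, against 3.28% and 0.732% of all genes. CRABP1, a retinoic acid binding protein, was higher at month 4 by 2.65 on the log2 scale (limma, adjusted p = 0.0021), and ALDH1A1 was higher by 2.07 (adjusted p = 0.0038).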
